A study of Homo sapiens with 8 samples.

Results

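The genes that encode integrins and laminins were followed in 2 human breast cancer cell lines with amplified HER2. Gene symbols were taken that name an integrin alpha chain, an integrin beta chain or a laminin alpha, beta or gamma chain. This gave 37 of the 20531 genes listed: 18 integrin alpha genes, 8 integrin beta genes and 11 laminin genes. Of these, 25 reached 10 in some library and are described, 18 of them integrin genes and 7 laminin genes. The other 12 stayed below 10 in every library and 3 of those, ITGA8, ITGAD and ITGAX, were at 0 in all 8. The member just inside that limit was LAMB4 with a highest value of 10, and the member just outside it was ITGA2B with 9.43. The highest value was 6.63 for LAMA4, 6.02 for ITGAM and 4.35 for ITGB3, and 1.93 or less for ITGA4, LAMA2, LAMC3, LAMA1 and ITGA11.

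Poly(A) RNA was sequenced from SKBR-3 cells, which carry neither estrogen nor progesterone receptor, and from BT474m1 cells, a derivative of BT474 that carries both. Both were treated for 48 h, as labelled, with 300 nM lapatinib, which blocks the EGFR and HER2 kinases, with 300 nM JQ1, which displaces BET bromodomain proteins from chromatin, with the pair of drugs together, or with DMSO as the vehicle. All 8 groups were grown in the same serum-supplemented medium and each was 1 library of an established line. The unit is the scaled read count, an estimated read count that the authors scaled (upper quartile 1000 in each library, genes at 0 left out).

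No group had a second library, so that no difference could be set against a spread between replicates, no single contrast within a line could be tested on its own. Fits that assume additive drug effects, within a line or over both lines, were not made, and no p-value is given. A difference of 2-fold or more on the log2(value + 1) scale was called a change, and the 95% interval beside a log2 fold change covers counting error only. That interval is for the ratio of reads without the added 1, so that for low genes it is not centred on the value before it. The depth ran from 21420115 to 34112379 reads on genes, and 1 read was worth 0.471 to 0.766 units. Values of 1.41 to 2.3 units equalled the floor of 3 reads. The 20 highest genes took 14% of the reads in SKBR-3 with JQ1 and 6.83% to 11.1% in the other 7 libraries. All 7 luminal epithelial markers reached 10 in both lines, although CDH1 (E-cadherin) stayed between 2.58 and 15.1 in SKBR-3 and between 19413 and 24373 in BT474m1. The estrogen receptor gene ESR1 had 4.29 in SKBR-3 and 840 in BT474m1 with DMSO, and ERBB2 (HER2) was 112656 and 95962. The summed level of 8 basal or myoepithelial markers was 57.1 to 125 in SKBR-3 and 70.6 to 119 in BT474m1. Platelet markers summed to at most 1.2, and of 5 fibroblast markers only COL1A1 reached 10, with 24.1 to 124 in SKBR-3 and 337 to 1253 in BT474m1. Among the 3 endothelial markers PECAM1 stayed at or below 0.583, whereas CDH5 reached 126 in SKBR-3 and VWF 153 in BT474m1, both with DMSO, and both genes were lowered 2-fold by JQ1 in each line. Lapatinib also went with less CDH5 (36.3 to 0), VWF (153 to 30.7) and TP63 (38.2 to 3.01) in BT474m1, and with less COL1A1 in SKBR-3 (124 to 35.2). It went with more KRT5 in SKBR-3 (1.43 to 5.36). The leukocyte markers CD68 and LYZ rose 2-fold with lapatinib in both lines, with values given beside ITGAL. Of the 7 luminal markers, 3 were raised by JQ1 in SKBR-3 (3.75% of all genes were), the keratins KRT8, KRT18 and KRT19 by log2 1.84, 1.82 and 1.47, and the other 4 were between -0.57 and 0.25. Of the 6 basal or myoepithelial markers kept, 3 fell 2-fold with JQ1 in SKBR-3, where KRT5 went up, and 2 fell in BT474m1 (11.8% of all genes fell in each line), while COL1A1 was lowered by JQ1 in BT474m1. The part of these markers in the values of the members was not tested.

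Integrins are cell surface receptors made of 1 alpha and 1 beta chain, and most bind proteins of the extracellular matrix. The alpha chain largely sets the ligand: α3, α6 and α7 bind laminins, α1, α2, α10 and α11 bind collagens, and α5, α8, αV and αIIb bind ligands that carry the RGD peptide. The β4 chain pairs with α6 alone and anchors epithelial cells in hemidesmosomes. Laminins are trimers of 1 alpha, 1 beta and 1 gamma chain and form the sheet-like network of basement membranes. In the breast, laminins are laid down around ducts, and the α3 and β3 chains belong to the laminin that is the ligand of hemidesmosomes.

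The DMSO libraries of the 2 lines were compared first. BT474m1 carried the γ1, α6 and β8 chains, which were low in SKBR-3, while SKBR-3 carried more α3, α5 and β1 laminin chains. Of the 25 members, 5 were at least 2-fold higher in BT474m1 (background 26.8% of all 14429 genes kept) and 7 were at least 2-fold lower (background 15.6%). Those higher were ITGA3, ITGA6, ITGAL, ITGB8 and LAMC1, and those lower were ITGA1, ITGA5, ITGA9, LAMA3, LAMA5, LAMB1 and LAMB4. The median log2 difference of the members was -0.01 and that of all genes 0.21. Line and library cannot be told apart, since each line had 1 DMSO library.

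**Figure D1:**
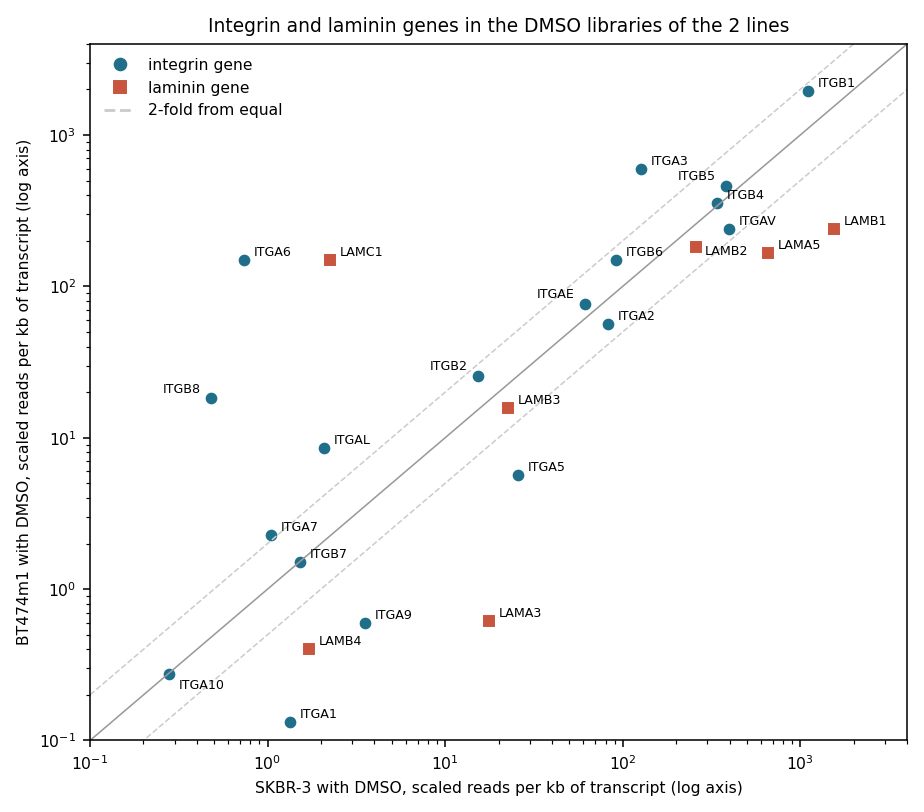
Levels of the 25 members with DMSO, as scaled reads per kb of transcript on log axes, SKBR-3 across and BT474m1 up, 1 library each. LAMC1 and ITGA6 stand far above the line of equal levels (149 against 2.26 and 150 against 0.738), LAMA3 far below it (0.62 against 17.6), and ITGB4, ITGB5, ITGAE and LAMB3 lie within the 2-fold band.

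Levels of different genes are compared here only per kb of transcript, in scaled reads. In SKBR-3 with DMSO the order began with LAMB1 at 1543 per kb, ITGB1 at 1103, LAMA5 at 658, ITGAV at 398 and ITGB5 at 380. In BT474m1 it began with ITGB1 at 1959 per kb, ITGA3 at 595, ITGB5 at 463, ITGB4 at 355 and ITGAV at 239. The β1 chain, shared by the largest group of integrins, αV and β5 were thus among the 5 highest members of both lines. SKBR-3 led with a laminin chain, and BT474m1 with 5 integrin chains.

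LAMC1 encodes γ1, the gamma chain of most laminin trimers. In SKBR-3 it had 17.9 scaled reads with DMSO, 26 with lapatinib, 18 with JQ1 alone and 19.3 with both drugs. BT474m1 had 1179, 1328, 1308 and 1306 in the same order. The lines did not overlap, and no treatment moved LAMC1 by 2-fold in either of them. With DMSO it was higher in BT474m1 by log2 5.96 (5.48 to 6.67). LAMC3 (γ3) was at 0 in 7 of the 8 libraries and at 1.17 in BT474m1 with both drugs.

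LAMA5 encodes α5, the alpha chain of the laminins with the widest distribution in adult epithelia. Its values in SKBR-3 were 7514 with DMSO, 8293 with lapatinib, 9847 with JQ1 alone and 8372 with both drugs. In BT474m1 they were 1907, 2810, 1678 and 2329. Every SKBR-3 library was above every BT474m1 library, and no treatment reached 2-fold. Per kb, LAMA5 exceeded LAMC1 by a ratio of 291 in SKBR-3 with DMSO (interval 197 to 450) and of 1.12 in BT474m1 (1.07 to 1.18). For LAMB1, the ratio to LAMC1 per kb was 684 (463 to 1057) and 1.6 (1.52 to 1.69).

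LAMB2 (β2) was the only member with 100 or more scaled reads in each line that was raised at least 2-fold by lapatinib in both, while LAMB1 (β1), which takes the same place in the trimer, did not reach 2-fold with any treatment. The stretches before the transcription starts of this pair are shown because the genes are paralogs with different responses. They were taken from RefSeq, assembly GRCh38.p14, as the 250 bases before the start, on the strand of the gene: chr3:49133051-49133300, minus strand, for LAMB2 and chr7:108003162-108003411, minus strand, for LAMB1. Capitals would mark a match to one of 3 motifs searched on both strands.
LAMB2: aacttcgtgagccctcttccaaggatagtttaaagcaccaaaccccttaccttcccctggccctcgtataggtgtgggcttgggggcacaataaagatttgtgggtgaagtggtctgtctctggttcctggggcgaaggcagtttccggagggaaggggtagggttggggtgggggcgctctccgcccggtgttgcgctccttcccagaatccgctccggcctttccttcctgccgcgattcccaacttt
LAMB1: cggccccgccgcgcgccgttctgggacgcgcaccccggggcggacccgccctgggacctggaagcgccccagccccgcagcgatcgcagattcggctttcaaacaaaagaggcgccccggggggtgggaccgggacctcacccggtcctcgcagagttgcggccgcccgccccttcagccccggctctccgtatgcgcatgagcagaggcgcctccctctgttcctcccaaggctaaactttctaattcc

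The motifs were the forkhead motif (GTAAACA or GTCAACA), the AP-1 motif (TGANTCA, N being any base) and the E-box (CACGTG), no one of which contains another. Neither stretch held a match, so that both are printed in lower case throughout. G and C made up 58.4% of the LAMB2 stretch and 70.4% of that of LAMB1. Of all 35116 RefSeq stretches of this length, 4.84% held the forkhead motif, 6.57% the AP-1 motif and 6.34% the E-box. RefSeq stretches were given for 26 of the 37 genes, 33 stretches in all, of which 0 held the forkhead motif, 2 the AP-1 motif (LAMA3 and LAMB3) and 1 the E-box (ITGA6). These matches are descriptions of letters in a window, and the table had no entry for ITGA3, ITGA7, ITGA9, ITGAL, ITGAD, ITGAX, ITGB2, ITGB3, ITGB4, LAMA1 and LAMC3.

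LAMB2 had 1462 scaled reads in SKBR-3 with DMSO, 3871 with lapatinib, 1832 with JQ1 alone and 6184 with both drugs. The BT474m1 values were 1035, 3175, 1115 and 2336. In each line the libraries with lapatinib in the medium, alone or with JQ1, were the highest pair. The log2 fold change with lapatinib was 1.40 (1.33 to 1.48) in SKBR-3 and 1.62 (1.54 to 1.69) in BT474m1, and that with JQ1 was 0.33 and 0.11. The pair of drugs gave 2.08 (2.01 to 2.15) and 1.17 (1.10 to 1.25), so that adding JQ1 to lapatinib went with a further 0.68 (0.63 to 0.73) in SKBR-3 and with -0.44 (-0.50 to -0.38) in BT474m1. Lapatinib and both drugs were read against the same DMSO library in each line, so that these values are not independent of each other.

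LAMB1 had 8719 scaled reads in SKBR-3 with DMSO, 11128 with lapatinib, 7083 with JQ1 alone and 7453 with both drugs. In BT474m1 it had 1346, 1336, 1332 and 729. The SKBR-3 libraries were all above the BT474m1 libraries, and the widest difference from DMSO was with both drugs in BT474m1 (log2 -0.88, -0.98 to -0.79), short of 2-fold. Per kb, the ratio of LAMB1 to LAMB2 in SKBR-3 was 6.01 (5.73 to 6.3) with DMSO, 2.9 (2.8 to 2.99) with lapatinib, 3.89 (3.74 to 4.06) with JQ1 and 1.21 (1.18 to 1.25) with both drugs. The BT474m1 ratios were 1.31 (1.24 to 1.38), 0.424 (0.403 to 0.445), 1.2 (1.14 to 1.27) and 0.314 (0.295 to 0.335). With DMSO β1 RNA was thus the higher in both lines, and with lapatinib β2 RNA was the higher in BT474m1 but not in SKBR-3.

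**Figure D2:**
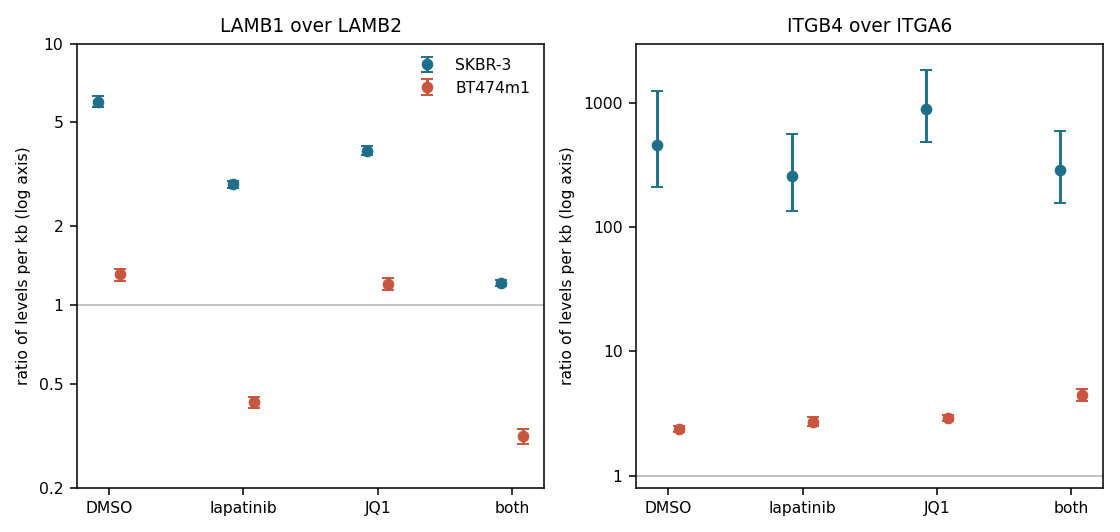
Ratios of levels per kb of transcript on log axes, LAMB1 over LAMB2 at left and ITGB4 over ITGA6 at right, by treatment and line ("both" is lapatinib with JQ1), with 1 library a point and bars for the 95% counting interval. The first ratio fell with lapatinib and with both drugs in each line (6.01 to 2.9 and 1.21 in SKBR-3, 1.31 to 0.424 and 0.314 in BT474m1), and the second was 259 to 890 in SKBR-3 against 2.36 to 4.45 in BT474m1.

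The α3 and β3 laminin chains were low next to those chains. LAMA3 (α3) had 188, 110, 141 and 50.2 scaled reads in SKBR-3 with DMSO, lapatinib, JQ1 and both drugs, and 6.6, 25.9, 4.83 and 14.6 in BT474m1. The lines moved in opposite directions with both drugs: the log2 fold change was -1.88 (-2.30 to -1.52) in SKBR-3 and 1.04 (0.14 to 2.20) in BT474m1, where the values stayed under 100. This difference between the lines was not tested. With DMSO, the log2 difference of LAMA3 in BT474m1 from SKBR-3 was -4.63 (-5.72 to -4.06). LAMB3 (β3) stayed under 100 in all libraries, with 16.1 to 90.9 in SKBR-3 and 41.4 to 73.5 in BT474m1, and was changed 2-fold from DMSO in SKBR-3 and not in BT474m1, by -2.43 (-3.18 to -1.87) with JQ1 and -1.80 (-2.41 to -1.30) with both drugs.

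The AP-1 matches lay in the genes of these 2 chains. Their stretches are shown because they were the only ones of the 33 with this match, with capitals for it. They are chr18:23872770-23873019, plus strand, for LAMA3 and chr1:209651375-209651624, minus strand, for LAMB3, the one of 3 RefSeq starts of LAMB3 that held a match. Whether the LAMA3 start shown belongs to the canonical transcript whose length was used per kb was not checked.
LAMA3: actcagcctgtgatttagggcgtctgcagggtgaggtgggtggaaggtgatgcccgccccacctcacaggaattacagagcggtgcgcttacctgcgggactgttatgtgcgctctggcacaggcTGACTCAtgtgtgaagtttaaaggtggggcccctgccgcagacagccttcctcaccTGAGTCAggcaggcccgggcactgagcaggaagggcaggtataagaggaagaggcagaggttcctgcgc
LAMB3: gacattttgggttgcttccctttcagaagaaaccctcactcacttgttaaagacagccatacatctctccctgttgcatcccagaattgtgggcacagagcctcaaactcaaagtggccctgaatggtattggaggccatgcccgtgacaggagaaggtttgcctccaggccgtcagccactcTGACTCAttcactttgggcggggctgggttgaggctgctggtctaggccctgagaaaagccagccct
The first bases of the matches were at -125 and -69 in LAMA3 and at -67 in LAMB3, counted from the start with -1 as the base before it. The share of stretches with the motif was 6.06% among these genes and 6.57% among all.

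Among the receptors of laminin, ITGA3 (α3) was present in both lines and rose 2-fold with both drugs in each. It had 617 scaled reads in SKBR-3 with DMSO, 839 with lapatinib, 1700 with JQ1 alone and 1304 with both drugs. The corresponding BT474m1 values were 2910, 3469, 4363 and 5858. Every treated library was above the DMSO library of its line, and all BT474m1 libraries were above those of SKBR-3. The log2 fold change with both drugs was 1.08 (0.96 to 1.20) in SKBR-3 and 1.01 (0.96 to 1.06) in BT474m1. These lie close to the limit: with libraries scaled to equal totals the SKBR-3 value was 0.99, and with scaling by the median of ratios the BT474m1 value was 0.99. With JQ1 alone it was 1.46 (1.35 to 1.58) in SKBR-3 and 0.58 (0.54 to 0.63) in BT474m1.

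ITGA6 (α6) differed between the lines more than any other member with 100 or more scaled reads in 1 of the DMSO libraries. Its values were 4.29, 6.89, 6.44 and 6.88 in SKBR-3 and 873, 481, 900 and 222 in BT474m1, in the order DMSO, lapatinib, JQ1 and both drugs. The SKBR-3 values rested on 6 to 10 reads, and with DMSO BT474m1 was higher by log2 7.37 (6.54 to 9.12). In BT474m1 the log2 fold change with both drugs was -1.97 (-2.14 to -1.81) against DMSO and -1.11 (-1.30 to -0.94) against lapatinib alone, while JQ1 alone left it at 0.04 (-0.05 to 0.14). ITGA7 (α7), the third laminin-binding alpha chain, stayed between 1.93 and 14.5.

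ITGB4 (β4), the partner of α6, was of like level in both lines with DMSO. In SKBR-3 it had 2013 scaled reads with DMSO, 1812 with lapatinib, 5811 with JQ1 alone and 2000 with both drugs. BT474m1 had 2091, 1325, 2644 and 1002. The JQ1 library was the highest of each line, far above the other 3 in SKBR-3. With JQ1 the log2 fold change was 1.53 (1.47 to 1.59) in SKBR-3 and 0.34 (0.28 to 0.40) in BT474m1. The values with both drugs were -0.01 (-0.08 to 0.07) and -1.06 (-1.14 to -0.98), and both drugs against JQ1 alone gave -1.54 (-1.60 to -1.48) and -1.40 (-1.48 to -1.32). The sign of the SKBR-3 value with both drugs flipped to 0.13 with median of ratios scaling. The SKBR-3 JQ1 library is the one in which the 20 highest genes took 14% of the reads, and with equal totals its ITGB4 value was 1.38, still past 2-fold.

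Per kb, ITGB4 exceeded ITGA6 by a ratio of 462 (212 to 1261) in SKBR-3 with DMSO and of 2.36 (2.24 to 2.5) in BT474m1. With both drugs the BT474m1 ratio was 4.45 (3.98 to 4.99), ITGA6 having fallen more than ITGB4. SKBR-3 thus held β4 RNA at a level near that of BT474m1 with hardly any RNA of the only alpha chain that β4 is known to pair with.

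**Figure D3:**
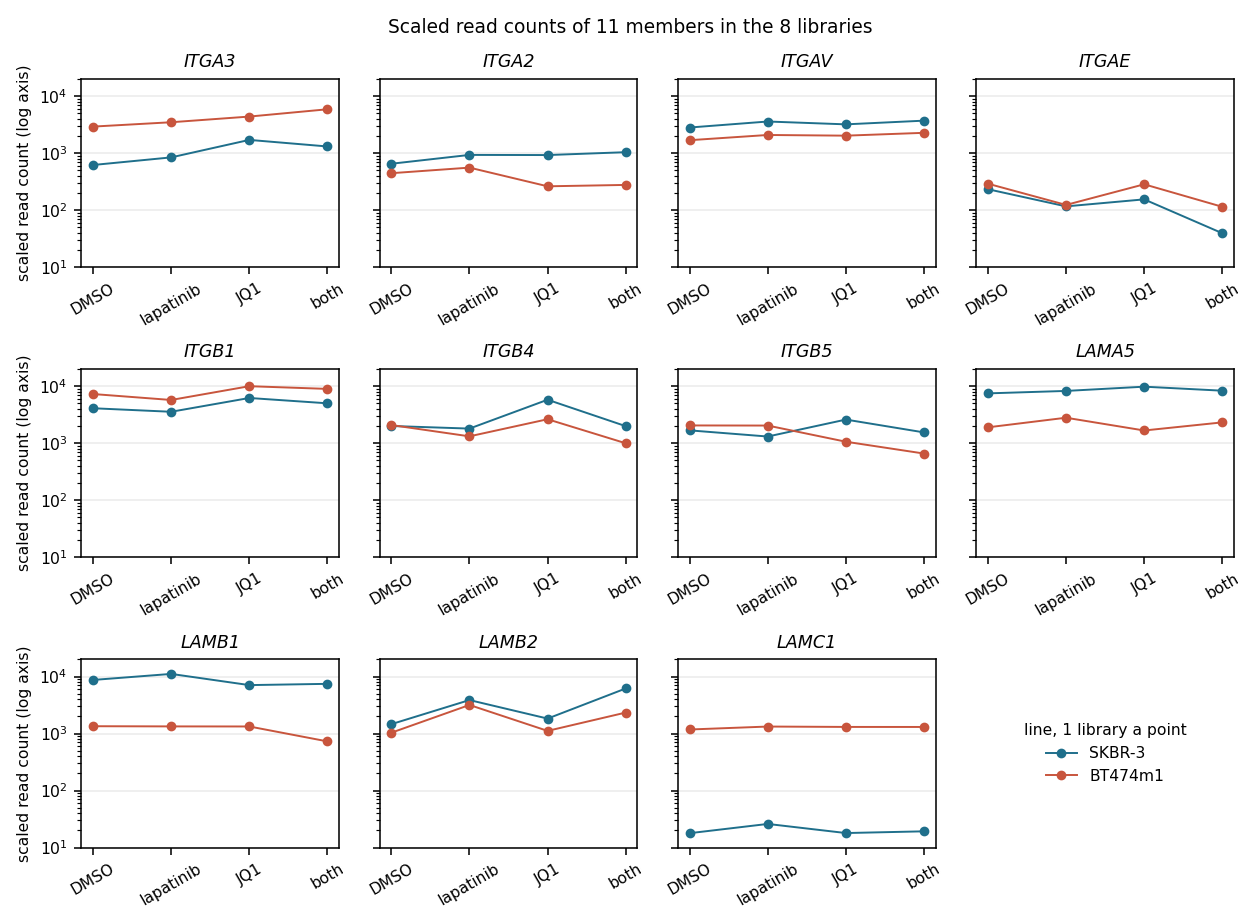
Scaled read counts, on a log axis, of the 11 members with 1000 or more in any library or a 2-fold change shared by both lines with 100 or more in each, by treatment ("both" is lapatinib with JQ1), with 1 library a point and lines joining the libraries of a cell line. LAMB2 was highest with lapatinib and with both drugs in each line, ITGB4 peaked at 5811 with JQ1 in SKBR-3, and LAMC1 was 17.9 to 26 in SKBR-3 against 1179 to 1328 in BT474m1.

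ITGB1 (β1) had 4121 scaled reads in SKBR-3 with DMSO, 3574 with lapatinib, 6238 with JQ1 alone and 5030 with both drugs. The BT474m1 values were 7318, 5755, 10040 and 9002. In both lines it was lowest with lapatinib and highest with JQ1, with log2 fold changes from -0.35 to 0.60 against DMSO, so that no treatment reached 2-fold. ITGB1 was the highest integrin per kb in every library.

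The RGD-binding αV and α5 chains went separate ways. ITGAV (αV) had 2803, 3573, 3186 and 3699 scaled reads in SKBR-3 and 1680, 2074, 2018 and 2263 in BT474m1 with DMSO, lapatinib, JQ1 and both drugs. The DMSO library was the lowest of each line, and the log2 fold changes of 0.18 to 0.43 stayed under 2-fold. ITGA5 (α5), which forms the fibronectin receptor with β1, had 109, 70.4, 27.7 and 8.94 in SKBR-3 and 24, 12, 4.83 and 5.83 in BT474m1. The DMSO library was the highest in each line. With JQ1 the log2 fold change was -1.94 (-2.50 to -1.48) and -2.10 (-3.46 to -1.32), and with both drugs it was -3.47 (-4.55 to -2.79) and -1.87 (-3.19 to -1.05). The BT474m1 values rest on 10 to 51 reads.

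Of the beta chains that pair with αV, β5, β6 and β8 were lowered by both drugs in BT474m1. ITGB5 (β5), part of the vitronectin receptor αVβ5, had 1687, 1315, 2608 and 1553 scaled reads in SKBR-3 and 2058, 2048, 1066 and 661 in BT474m1. JQ1 went with the highest value in SKBR-3 and with a lower one in BT474m1, by log2 0.63 (0.55 to 0.70) and -0.95 (-1.02 to -0.87). With both drugs the BT474m1 value was -1.64 (-1.73 to -1.54) and the SKBR-3 value -0.12 (-0.20 to -0.04), whose sign flipped to 0.02 with median of ratios scaling. ITGB6 (β6), an epithelial chain whose integrin αVβ6 activates latent TGF-beta, had 691 with DMSO, 110 with lapatinib, 205 with JQ1 alone and 58.9 with both drugs in BT474m1. In SKBR-3 it had 424, 341, 366 and 224. All 3 treatments lowered it over 3-fold in BT474m1, by log2 -2.65 (-2.89 to -2.43), -1.75 (-1.91 to -1.59) and -3.53 (-3.86 to -3.26). In SKBR-3 the values were -0.31, -0.21 and -0.92, each short of 2-fold.

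ITGB8 (β8), whose integrin also activates latent TGF-beta, was at 163, 197, 62.3 and 57.1 in BT474m1 and at 0.688 to 7.66 in SKBR-3. The DMSO libraries differed by log2 4.95 (4.11 to 6.70), with BT474m1 the higher. JQ1 lowered it there by log2 -1.37 (-1.69 to -1.09), both drugs by -1.50 (-1.85 to -1.19). Both libraries with JQ1 were below both without it.

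Of the collagen-binding alpha chains, ITGA2 (α2) was the only one at 100 or more. It had 649, 927, 922 and 1035 scaled reads in SKBR-3 and 443, 555, 261 and 276 in BT474m1. The drugs went with higher values in SKBR-3 (log2 0.52, 0.51 and 0.67), and in BT474m1 JQ1 and both drugs went with lower ones (-0.76 and -0.68), all short of 2-fold. Against lapatinib alone, both drugs gave -1.00 (-1.17 to -0.84) in BT474m1, a value on the limit that became -0.97 to -0.99 under the other scalings and the larger pseudocount. ITGA10 (α10), chosen for mention after its values were seen, went from 1.43 to 20.7 with lapatinib in SKBR-3 cells and from 1.41 to 12.7 in BT474m1. The DMSO values rest on 2 and 3 reads, and the log2 fold changes of 3.16 (1.86 to 6.97) and 2.50 (1.42 to 5.55) have wide intervals. With both drugs ITGA10 was at 3.44 in SKBR-3 and at 10.5 in BT474m1. Against lapatinib alone these were log2 -2.29 (-4.32 to -1.19) and -0.25 (-1.26 to 0.71). ITGA1 (α1) stayed between 0 and 22.2.

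ITGA9 (α9), a receptor of tenascin-C and other ligands, was low and rose 2-fold with lapatinib alone in each line. It had 27.9 scaled reads in SKBR-3 with DMSO, 118 with lapatinib, 2.58 with JQ1 alone and 23.4 with both drugs, and 4.71, 15.7, 1.93 and 2.33 in BT474m1. The lapatinib library was the highest of each line, by log2 2.04 (1.56 to 2.62) and 1.54 (0.63 to 2.95), and JQ1 beside lapatinib took it back by -2.29 (-2.91 to -1.79) and -2.32 (-4.73 to -1.22). In SKBR-3 JQ1 alone gave -3.01 (-5.38 to -1.97). Both drugs against JQ1 alone gave 2.77 (1.69 to 5.14) in SKBR-3 and 0.18 (-2.15 to 2.70) in BT474m1.

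Integrin chains known from leukocytes were also found. ITGAE (αE), which with β7 binds E-cadherin, had 232 scaled reads in SKBR-3 with DMSO, 116 with lapatinib, 154 with JQ1 alone and 39.2 with both drugs. In BT474m1 it had 290, 123, 283 and 114. The libraries with lapatinib were the lowest pair of each line. With both drugs the log2 fold change was -2.53 (-3.00 to -2.15) and -1.34 (-1.59 to -1.12), and with lapatinib it was -0.99 (-1.28 to -0.71) and -1.22 (-1.47 to -1.00). In SKBR-3 the lapatinib value was on the limit and passed it under median of ratios scaling (-1.01) and equal totals (-1.04). The values of ITGAE are uncertain, since HASPIN, a mitotic kinase gene listed under its older symbol GSG2, has an exon that overlaps ITGAE on the opposite strand. HASPIN itself had 326, 32.9, 307 and 6.88 in SKBR-3 and 194, 12.7, 102 and 11.1 in BT474m1. Both genes were lowest in the lapatinib libraries, and where reads are counted without strand the pair cannot be told apart. The stretch before the start of ITGAE, chr17:3801189-3801438 on the minus strand, is shown because ITGAE was the member lowered by both drugs in both lines with 100 or more scaled reads in each, and held none of the motifs.
ITGAE: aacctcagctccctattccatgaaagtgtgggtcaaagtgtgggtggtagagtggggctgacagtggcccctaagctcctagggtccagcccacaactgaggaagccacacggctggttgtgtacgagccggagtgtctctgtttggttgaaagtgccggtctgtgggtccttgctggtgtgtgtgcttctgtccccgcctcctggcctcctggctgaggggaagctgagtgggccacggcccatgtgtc

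ITGB7 (β7), the partner of αE, was chosen for mention after its values were seen. It had 4.24 scaled reads in BT474m1 with DMSO, 72.9 with lapatinib, 0.966 with JQ1 alone and 43.7 with both drugs, and at most 4.29 in SKBR-3. Only the lapatinib libraries of BT474m1 stood apart, by log2 3.82 (3.13 to 5.27) and 3.09 (2.36 to 4.55), in the opposite direction to ITGAE. ZNF740 has exons that overlap ITGB7 on the opposite strand. With DMSO, lapatinib, JQ1 and both drugs it had 811, 1626, 799 and 1406 in BT474m1. In SKBR-3 ZNF740 had 538, 1018, 639 and 1738, and ITGB7 had 4.29, 2.3, 0.644 and 2.06. The part of this overlap in the ITGB7 values was not tested.

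ITGAL (αL), the alpha chain of LFA-1, was likewise chosen after its values were seen. It had 10.7, 16.8, 2.58 and 2.75 scaled reads in SKBR-3 and 43.8, 71.1, 2.9 and 1.75 in BT474m1 with DMSO, lapatinib, JQ1 and both drugs. Both libraries with JQ1 were below both without it in each line, by log2 -1.71 (-4.11 to -0.41) and -3.52 (-5.40 to -2.74) with JQ1 alone. ITGB2 (β2), its partner, had 42.9, 49, 23.2 and 21.8 in SKBR-3 and 71.7, 39.2, 20.8 and 23.3 in BT474m1. The JQ1 libraries were again the lowest pair, and the 2-fold limit was passed in BT474m1 (-1.74, -2.31 to -1.29) but not in SKBR-3 (-0.86, -1.53 to -0.27). Of the 6 leukocyte markers, 2 reached 10 in each line, PTPRC (CD45) stayed at or below 3.38 and CD3E at or below 2.86. The summed level of the list was 195 to 420 in SKBR-3, mostly CD68, and 24.5 to 108 in BT474m1, and its part in these values was not tested.

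The counts of members changed were set beside those of all 14429 genes kept. With lapatinib in SKBR-3, 3 of the 25 members were higher (background 11.1%) and 0 were lower (background 9.44%). In BT474m1, 5 were higher (background 14%) and 3 were lower (background 8.06%). The 3 genes raised in SKBR-3, LAMB2, ITGA9 and ITGA10, were also among the 5 raised in BT474m1, with LAMA3 and ITGB7. One of the 3 lowered in BT474m1, ITGA1, went from 3 reads to 0, and no fold is given for it. The median log2 fold change of the members was 0.19 and 0.25 in the 2 lines, and that of all genes 0.05 and 0.07.

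With JQ1, more members were lowered than raised, as held for all genes. In SKBR-3, 2 were higher (ITGA3 and ITGB4, background 3.75%) and 6 were lower (background 11.8%), and in BT474m1 0 were higher (background 4.81%) and 7 were lower (background 11.8%). ITGA5, ITGAL, ITGB7 and LAMB4 were lowered in both lines, although the interval of ITGB7 held 0 in both lines and that of LAMB4 did in BT474m1. The lowered members were 24% of the 25 in SKBR-3 and 28% in BT474m1. Counting only members whose interval excluded no change left 5 lowered in each line. With a pseudocount of 10 the SKBR-3 count was 3, and with only members that reached 100 in some library the counts were 2 and 3. The medians were -0.30 and -0.56, against -0.08 and -0.06 for all genes.

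With both drugs, 2 members were higher in SKBR-3 (background 10.8%) and 7 were lower (background 20.8%). In BT474m1, 5 were higher (background 14.2%) and 10 were lower (background 15.3%). ITGA3 and LAMB2 were raised in both lines, and ITGA5, ITGAE, ITGAL, ITGB8 and LAMB4 were lowered in both, although the interval held 0 for ITGB8 in SKBR-3 and for LAMB4 in BT474m1. The medians were -0.25 and -0.68, against -0.08 and 0.00 for all genes. The lowered members were 28% and 40% of the 25. In BT474m1, 5 of the 10 lowered members were the beta chains ITGB2, ITGB4, ITGB5, ITGB6 and ITGB8.

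Against lapatinib alone, adding JQ1 went with 0 members raised in either line (backgrounds 3.22% in SKBR-3 and 5.2% in BT474m1). It went with 10 lowered in SKBR-3 (background 16.2%) and 7 lowered in BT474m1 (background 12.5%). Of the 10, 3 had 100 or more scaled reads in 1 of the libraries compared (ITGA9, ITGAE and LAMA3), and of the 7, 4 did (ITGA6, ITGA2, ITGB5 and ITGB8). The members had a median of -0.60 in SKBR-3, where that of all genes was -0.11, and of -0.72 in BT474m1, where it was -0.02. These contrasts share libraries with those above.

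**Figure D4:**
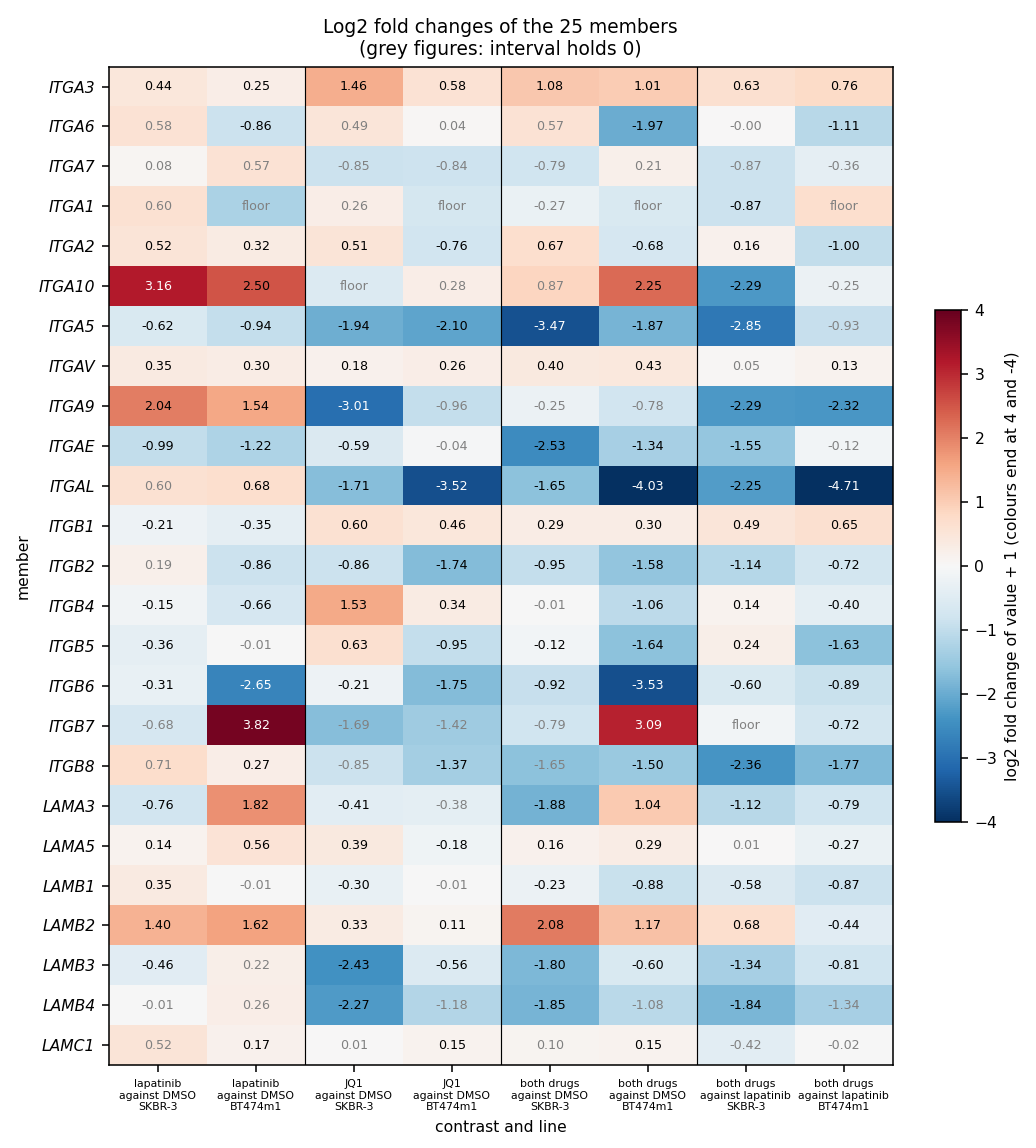
Log2 fold changes of the 25 members (rows) on the log2(value + 1) scale in 4 contrasts and 2 lines (columns), red for higher and blue for lower, with grey figures where the 95% counting interval holds 0 and "floor" where both libraries had 3 reads or fewer. LAMB2 is red with lapatinib and with both drugs in each line, and the JQ1 columns hold more blue than red.

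Genes that work with the members were taken from lists of other laminin receptors, basement membrane genes, hemidesmosome genes, integrin partners inside the cell and other integrin ligands. Of the 5 other laminin receptors, BCAM (the Lutheran glycoprotein, which binds the laminin α5 chain) and SDC4 (syndecan-4) rose 2-fold with lapatinib in SKBR-3, where 11.1% of all genes did. BCAM went from 7405 to 20214 there and from 9743 to 9807 in BT474m1. SDC4 went from 3228 to 7243 in SKBR-3 cells and from 2352 to 4252 in BT474m1, and with both drugs it was at 10214 and 5763. DAG1 (dystroglycan), SDC1 and RPSA did not reach 2-fold with lapatinib in either line.

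Of 15 other basement membrane genes, 13 were kept. With JQ1 0 were raised and 6 lowered in each line, COL4A1, COL4A2, COL4A4 and COL15A1 in both (background lower 11.8% in each line, higher 3.75% and 4.81%). In SKBR-3, COL4A1 went from 2.15 to 0 and COL4A4 from 1.43 to 0. Both lay at or below the floor of 3 reads, so that these calls in SKBR-3 are not reliable. COL4A2, a chain of collagen IV, went from 83 to 23.8 in SKBR-3 cells and from 307 to 121 in BT474m1. COL7A1, the anchoring fibril collagen, went from 173 to 1810 with lapatinib in BT474m1 and was at 2167 with both drugs, but stayed at 4.51 to 9.95 in SKBR-3. HSPG2 (perlecan) went from 2237 to 951 with lapatinib in SKBR-3 cells and from 355 to 520 in BT474m1. AGRN (agrin), which binds laminin, stayed within 2-fold of DMSO throughout, at 13980 to 21196 in SKBR-3 and 2626 to 3705 in BT474m1.

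All 4 hemidesmosome genes were kept. With lapatinib 1 was raised in each line, DST in SKBR-3 (1275 to 2661) and COL17A1 in BT474m1 (backgrounds 11.1% and 14%). With JQ1 COL17A1 was lowered in both lines (background 11.8% in each), and PLEC was raised in SKBR-3 (background 3.75%). CD151 stayed within 2-fold of DMSO in each line. COL17A1 had 35.8 scaled reads in BT474m1 with DMSO, 152 with lapatinib, 3.38 with JQ1 alone and 7.58 with both drugs, and at most 6.44 in SKBR-3. PLEC (plectin), which links β4 to keratin filaments, went from 9506 to 22975 with JQ1 in SKBR-3 and was at 12994 with both drugs. That JQ1 library is the one in which the 20 highest genes took 14% of the reads. In BT474m1 PLEC stayed between 7178 and 9974.

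Of the 20 integrin partners inside the cell, 19 were kept. With JQ1 0 were raised and 7 lowered in SKBR-3, and 1 was raised and 3 lowered in BT474m1, beside 11.8% of all genes lowered in each line. The 7 include FERMT1, which went from 1.43 to 0 in SKBR-3, below the floor of 3 reads. Tensins, proteins of cell-matrix adhesions, were 4 of the 7 lowered in SKBR-3. TNS3 went from 775 to 246 in SKBR-3 cells and from 1598 to 718 in BT474m1, and TNS1 from 901 to 316 and from 491 to 208. TNS4 was at 442 with DMSO and 27.5 with both drugs in SKBR-3, and at 39.6 and 4.66 in BT474m1. Talin 1, kindlin-2 (FERMT2), vinculin, paxillin and ILK stayed within 2-fold of DMSO in each line. Of 10 other integrin ligands, 9 were kept, and with JQ1 1 was raised and 3 were lowered in each line (backgrounds as above). The 3 lowered in SKBR-3 include TNC, which went from 1.43 to 0, below the floor of 3 reads. Those raised were CTGF in SKBR-3, from 239 to 719, and EDIL3 in BT474m1. TNC (tenascin-C), a ligand of α9, was at 843, 378, 143 and 35.6 in BT474m1 and at most at 1.53 in SKBR-3, and FN1 (fibronectin), the ligand of α5, went from 1180 to 578 with JQ1 in SKBR-3 cells and from 146 to 43.5 in BT474m1.

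Exons of 6 of the 25 members overlap exons of other genes in the GENCODE annotation: ITGA1 with PELO on the same strand, and ITGA7, ITGAE, ITGB7, LAMA5 and LAMB1 with genes on the opposite strand. DLD, which overlaps LAMB1, was at 4611 to 6222 in SKBR-3 and 2828 to 4023 in BT474m1. ADRM1, which overlaps LAMA5, was at 1567 to 2937 and 1134 to 1565. The labels contradict each other on whether the libraries kept strand. In RNA from whole cultures, fewer cells of a kind and less RNA per cell cannot be told apart.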

How the data were processed

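RNA with a poly(A) tail from 8 cultures was analysed, 1 library for each of 8 groups taken from the labels. Each deposited table holds 1 signal per gene, an estimated RSEM read count that the authors scaled so that genes above 0 have an upper quartile of 1000. It is not divided by gene length. The submitters' processing notes list the hg19 build with RSEM, Picard 1.88, SAMtools 1.2, DESeq, DESeq2 1.12.3 and R 3.2.2, without roles, whereas the study's methods name another build, aligner and quantifier, so that the build of these tables is uncertain. The labels name a stranded kit in 1 field and an unstranded kit in another. The methods text gives a shorter treatment for cell lines in general, and the time in the labels was followed.

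The scripts ran under Python 3.11.15 (pandas 2.3.3, numpy 2.4.6, scipy 1.17.1, matplotlib 3.10.9). The filter kept 14429 of 20531 genes, those that reached 10 somewhere. Fold changes were differences of log2(value + 1), which understate the change of low genes. The value of 1 read was recovered as the common step of each library; 83.8% to 85.2% of the values were then whole reads within 0.02, so that no count model was fitted. Exact Clopper-Pearson intervals at 95% took the recovered reads, rounded to whole numbers, as counts without a pseudocount. Intervals and floors cover counting error only, since amplified reads that carry no molecular identifier may repeat 1 molecule. Levels per kb used the exon length of the canonical transcript of GENCODE release 44. The calculation was tested on simulated data.

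Values in all libraries are given for members with 1000 or more in any library, or changed 2-fold the same way in both lines with 100 or more in each. The other members are given by range and counts, with values for those changed 4-fold at 100 or more, and the text says where a low member was chosen after its values were seen. ITGA7, ITGA1, LAMB3, LAMB4 and ITGB2 were given values as partners or neighbours in a group. The members and the gene lists were chosen with earlier results of these data known. One further gene that the rule names is not reported here and is in no count of members.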

Additional observations from a re-analysis of the deposited data

How the results depend on the processing

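The alternatives were a larger pseudocount (10), 2 other scalings (median of ratios, equal totals), 2 other filters (none, or 100 in any library), and counting only members whose interval excluded no change. No replicate block could be fitted, since each group held 1 library, and additive fits of the treatments, within a line or with line as a block, were not made. Of 108 counts of members under an alternative, 91 stayed within 1.5 times the value reported and 17 did not. In SKBR-3 the count lowered by lapatinib went from 0 to 1 with median of ratios scaling, with equal totals and with no filter. The count lowered by JQ1 in SKBR-3 went from 6 to 3 with the pseudocount of 10 and to 2 with the filter at 100. With both drugs in SKBR-3, 4 in place of 7 were lowered under each of these settings, and 1 in place of 2 was raised with equal totals. Against lapatinib, 6 with that pseudocount and 5 with that filter were lowered in SKBR-3 in place of 10. In BT474m1 the counts raised by lapatinib and by both drugs went from 5 to 3 under each of these 2 settings. The count lowered by JQ1 there went from 7 to 3 with the filter at 100. With no filter, 2 members were raised by JQ1 and 1 by both drugs against lapatinib in BT474m1, in place of 0. The filter at 100 leaves fewer members and the larger pseudocount shrinks low ones. The cause of the moves under the scalings was not tested. Of 20 changes of 2-fold or more among the members with full values, 1 fell below 2-fold with the pseudocount of 10 (ITGA2), 2 with median of ratios scaling and 2 with equal totals (ITGA2 and ITGA3). The sign changed in 0, 5 and 2 of 99 such values, all within 0.15 of 0. The scalings moved the median of all genes by over 0.1 in 3 cases, by -0.14 for JQ1 in SKBR-3 with equal totals, and with median of ratios by 0.11 for both drugs against lapatinib in SKBR-3 and by -0.15 between the DMSO libraries. Members under 100 scaled reads, 8 of the 25 in every library, rest on few reads, and a single culture per group limits all values.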
